A study of Mus musculus with 8 samples.

Results

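Prdm1 is the mouse gene for Blimp-1, and its chromosomal surroundings were followed here in B cells that were on their way to a first division. The gene lies on the minus strand of chromosome 10 at chr10:44437177-44528501 (GRCm38), and its annotated start is base 44528501. That start was placed in the 50 kb bin chr10:44500185-44550854, called the gene-start bin below, and the 81 bins within 2 Mb of it (chr10:42499596-46550117) were taken as the locus, of 47332 autosomal bins kept in the series. A bin is a stretch of the genome whose MboI restriction fragments were counted together, and the number of sequenced fragment pairs that join 2 bins measures how often they were in contact. In the text, a positive distance runs away from the centromere, which is upstream of Prdm1, and a negative distance runs toward it.

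The 8 libraries were in situ Hi-C libraries of splenic B cells from male mice on a C57BL/6 Pep3b background, aged 6 to 12 weeks, with 2 libraries in each of 4 groups. Every culture was labelled with a division dye (CTV) and received lipopolysaccharide (LPS) at 25 μg/ml, so no group was left unstimulated. Undivided CD69+ B cells were sorted after 3 h, 10 h or 33 h, and the 33 h cells were named imminent division. The pre-S cells were also taken at 33 h, but from mice that carry the FUCCI cell-cycle reporters, with a gate on mAG- mKO2-high cells, so mouse line and gate went with that group and cannot be told apart from cell-cycle stage. By the study, pre-S cells had yet to enter DNA synthesis, while the imminent division cells were a bulk population without that gate. The imminent division group can therefore hold pre-S cells too, and these groups are not successive times. Libraries of naive cells and of cells after division were not used here.

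Blimp-1 is a zinc-finger transcriptional repressor that shuts down the B cell programme and is required for antibody-secreting plasma cells. In resting B cells its gene is held silent by repressors such as Bach2 and Bcl6, and factors such as Irf4 raise it as activated cells divide and differentiate. Genes of this kind are controlled by distant elements that come near the promoter within a domain of frequent contact, and the ends of such domains are often marked by the DNA-binding protein CTCF.

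The annotated start of Prdm1 is that of Prdm1-203, a transcript with a retained intron and no protein product, which extends far upstream. The protein-coding transcripts Prdm1-201, Prdm1-202 and Prdm1-204 start at bases 44458748, 44458687 and 44457210, all in the adjacent bin chr10:44449668-44500188, here called the coding-start bin. Results are therefore given for both bins, the second being an addition made after the transcripts had been read. The 250 bases before the start of Prdm1-201 (RefSeq promoter table, GRCm38.p6, chr10:44458749-44458998, minus strand) are shown because they fix where the coding promoter sits, with its 15 CpG pairs in capitals:
Prdm1 coding promoter: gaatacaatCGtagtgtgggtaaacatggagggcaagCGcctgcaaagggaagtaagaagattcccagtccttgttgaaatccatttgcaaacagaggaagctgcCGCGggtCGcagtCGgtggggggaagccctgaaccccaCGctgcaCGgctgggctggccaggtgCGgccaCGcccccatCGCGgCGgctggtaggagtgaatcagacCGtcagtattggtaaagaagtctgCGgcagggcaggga
These bases hold no MboI site (GATC, the same on both strands), while 41.9% of the 32851 promoters in the table hold one. The whole stretch therefore falls in a single fragment of 515 bp, chr10:44458499-44459013, and contacts cannot be resolved within it.

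The 12-letter core of the CTCF motif was searched on both strands of every bin, and the matches nearest to Prdm1 are shown because the partner bins described next lie beside some of them and not others. Capitals mark the core, each line is read 5′ to 3′ on its own strand, and a match describes letters and says nothing of whether the protein was bound.
-450 kb, chr10:44072504-44072533, minus strand: cttatacaaCCACTAGATGGCaatttgggc
+250 kb, chr10:44761505-44761534, minus strand: gtgggctagCCACTAGAGGGCattgtgatg
+550 kb, chr10:45051291-45051320, plus strand: tgagtccggCCAGCAGAGGGCagtacattc
+550 kb, chr10:45086833-45086862, minus strand: tgcctgcttCCACCAGGGGGCgcttctttc
+600 kb, chr10:45132570-45132599, minus strand: ggcacctggCCACCAGGGGGCatgcagtgc
Of the 81 bins of the locus 17 held at least 1 match, or 21%, against 20.5% of all kept bins. Between the bins at -300 kb and +500 kb, 17 bins in all, the bin at +250 kb was the single one with a match.

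Libraries held between 88703088 and 218945191 read pairs, and between 70.9% and 75.1% of the autosomal pairs joined bins of the same chromosome. The imminent division libraries were the deepest and had the lowest share of such pairs, and the part of these differences in the results was not tested. The study's methods describe the libraries of a group as biological replicates, while the labels do not say whether they came from separate animals. In the fitted tests a p-value sets a change against the spread between libraries, which was estimated in part over all features. Hi-C counts carry no expression values, so the B cell label could not be checked against marker genes.

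Of its contacts within 2 Mb, the gene-start bin made most on the upstream side in every library, where a gene-poor stretch runs as far as Prep. Counts were set against the mean count of all autosomal bin pairs at the same distance in that library, so that 1 is the level of an average pair. By this measure contact rose to 3.50 in 3 h cells at +200 kb, fell to 1.47 at +350 kb and rose again to 4.14 at +500 kb. In 10 h cells the same 3 bins stood at 3.70, 2.21 and 3.73. Past the bin of Prep, which encodes a prolyl endopeptidase, contact fell below the average of the distance, to 0.35 at +750 kb in 3 h cells, with a smaller rise to 1.67 at +850 kb. On the other side contact peaked at -200 kb, within the autophagy gene Atg5, at 2.46 in 3 h cells, and was at 0.76 at -300 kb. The plot of contact over distance shows the 2 upstream peaks and the single downstream peak, which were present in all 4 groups, with the first upstream peak at +250 kb in both 33 h groups and the downstream peak at -250 kb at imminent division.

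**Figure D1:**
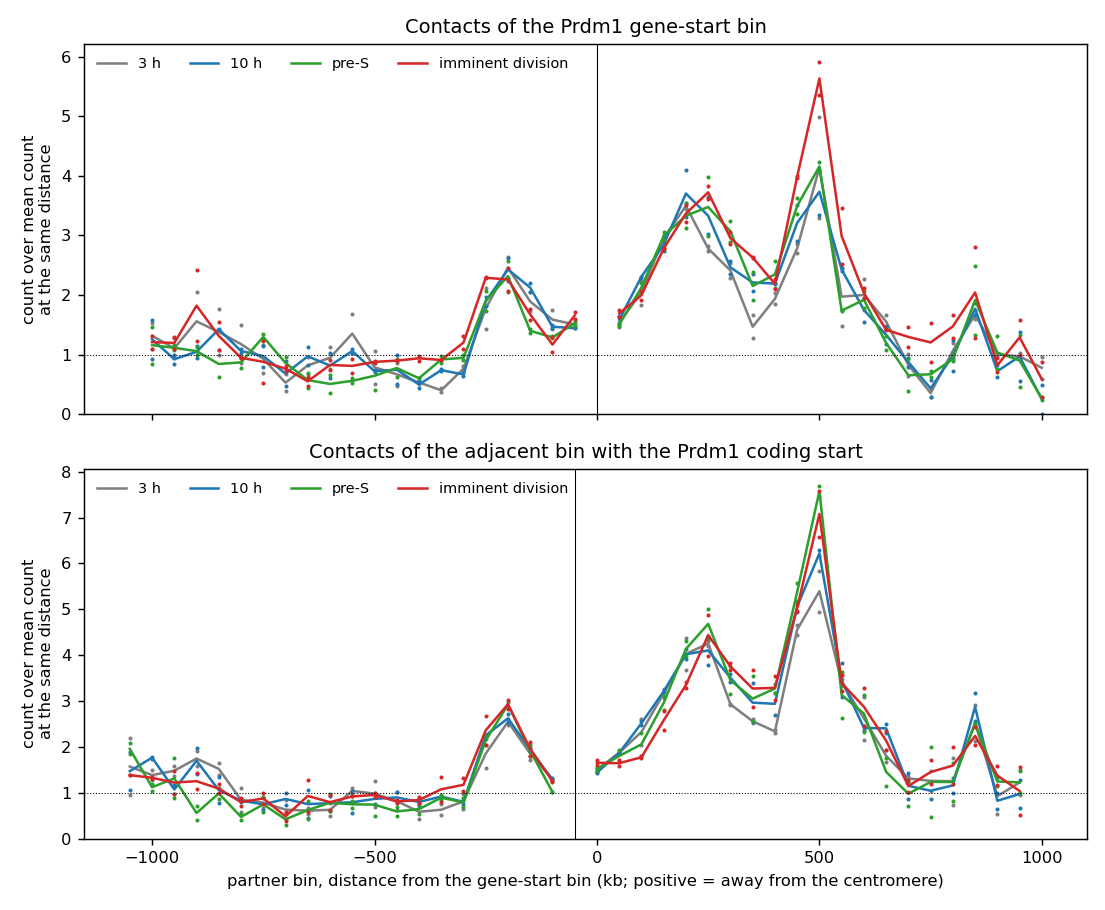
Count over the mean count at the same distance (no unit) for partners within 1 Mb of the Prdm1 gene-start bin (top) and of the adjacent coding-start bin (bottom), by distance in kb from the gene-start bin. Lines are means of the 2 libraries of a group and points are libraries. At +500 kb the gene-start bin stands at 5.64 in imminent division cells and between 3.73 and 4.16 in the other groups.

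Between 10 h and imminent division the gene-start bin gained contact with 3 partner bins and lost contact with none. Of its 80 partners 60 were abundant enough to be tested, and a false discovery rate (FDR) of 5% over all 1458863 bin pairs tested was used as the threshold. Over all of these pairs 0.645% were called gained and 1.39% called lost in the same comparison. All 3 gained partners lay between 250 kb and 500 kb away. At these distances all 12 tested partners of the gene-start bin had a change above 0, with a median of 0.41 on the log2 scale, against a median of 0.13 and 62.4% above 0 for all tested pairs in the series at these distances. The 8 partners within 200 kb had a median of 0.13, and the 21 tested partners beyond 1 Mb a median of -0.05.

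The gain of smallest p was with the bin at +500 kb (chr10:44999670-45050162), which lies just before the bin of Prep and is overlapped by the predicted genes Gm4795 and Gm40639. Normalised counts for this pair were 62.3 and 92.1 at 3 h, 78.9 and 65.5 at 10 h, 83.9 and 82.9 in pre-S cells, and 116 and 125 at imminent division. Both imminent division libraries were above the other 6, which overlapped among themselves. The log2 change from 10 h was 0.76 ± 0.15 (SE, FDR = 0.000685). This call was kept under every alternative setting and every omission of a library but 1, since without 10 h replicate 2 the FDR was 0.160.

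The second partner lay at -300 kb (chr10:44199974-44249637), between the start of Atg5 and that of Crybg1, a gene for a βγ-crystallin domain protein. Its normalised counts with the gene-start bin were 25.2 and 27.3 at 3 h, 23.3 and 21.7 at 10 h, 32.2 and 29.6 in pre-S cells, and 36.7 and 44.8 at imminent division. The imminent division libraries were the highest and the 10 h libraries the lowest, with no overlap between groups in that comparison. The log2 change from 10 h was 0.87 ± 0.25 (SE, FDR = 0.0377). Here the count was the smallest of the 3 partners, and the call was lost with offsets fitted within distance classes (change 0.74, FDR = 0.122) and in 100 kb bins (change 0.27, FDR = 0.171). DESeq2 gave it a change of 0.97 and no adjusted p.

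The third partner lay at +250 kb (chr10:44750323-44799956), in the gene-poor stretch, and holds the CTCF core match printed above for that distance. Normalised counts were 102 and 105 at 3 h, 138 and 117 at 10 h, 157 and 120 in pre-S cells, and 166 and 171 at imminent division. The 3 h libraries were the lowest and the imminent division libraries the highest, while the 10 h and pre-S values overlapped. The log2 change from 10 h to imminent division was 0.42 ± 0.12 (SE, FDR = 0.0449). Of the 3 calls this was the nearest to the threshold, and it did not pass with DESeq2 (FDR = 0.469), with TMM factors (FDR = 0.217), with bin coverage in the offsets (FDR = 0.0521), without the abundance filter (FDR = 0.0510), with a replicate block (FDR = 0.0549) or without any 1 of 5 libraries.

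**Figure D2:**
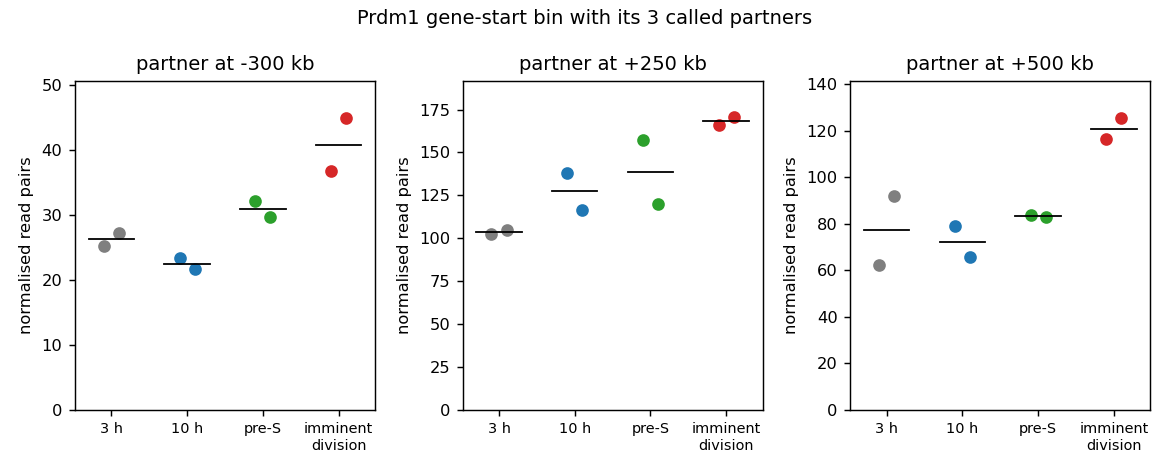
Normalised read pairs (loess-normalised counts, vertical axis from 0) that join the Prdm1 gene-start bin to the partner bins at -300 kb, +250 kb and +500 kb, by group. Points are libraries and bars are means of 2 libraries. At +500 kb the imminent division libraries stand at 116 and 125 and the other 6 between 62.3 and 92.1.

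These 3 calls rested on the 10 h libraries as much as on the imminent division libraries. Without 10 h replicate 2 no partner of the gene-start bin passed, and without 10 h replicate 1 or imminent division replicate 2 a single partner did. In bulk libraries, contact in more cells and closer contact within each cell cannot be told apart.

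In the other 3 comparisons no partner of the gene-start bin passed the threshold with edgeR. Of all bin pairs 0.000617% were called between 3 h and 10 h (0.000548% gained and 6.85e-05% lost), 0.597% between 10 h and pre-S, and 0.372% between pre-S and imminent division. Unadjusted p was below 0.05 for 5, 3 and 9 of the 60 partners in these comparisons. The share of all tested pairs below that level is not given here, so these counts have no baseline. The 3 partners of smallest p between 3 h and 10 h lay at -1800 kb, +350 kb and -1350 kb, with log2 changes of 2.2 ± 0.78, 0.56 ± 0.22 and 1.60 ± 0.75 (SE). The first and last of these had at most 11.4 normalised reads in any library, and with 1 library left out their changes ranged from 1.62 to 6.02 and from 1.04 to 6.05, the highest being without 3 h replicate 2.

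Between 10 h and pre-S the partner of smallest p lay at -150 kb, in a bin that overlaps the end of Atg5, and it was the nearest to a loss. Its normalised counts were 136 and 127 at 10 h, 90.1 and 86.1 in pre-S cells, and 121 and 108 at imminent division, with a log2 change of -0.57 ± 0.16 from 10 h to pre-S (SE, FDR = 0.0602). It passed with TMM factors (FDR = 0.0225) and without either 3 h library (FDR = 0.0466 and 0.0487). The pre-S libraries were below the other 6. The next partners, at -550 kb and +300 kb, had changes of -0.99 ± 0.43 and 0.35 ± 0.17 (SE), with FDR of 0.317 and 0.421.

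From pre-S to imminent division the change at +500 kb was 0.54 ± 0.15 (SE, FDR = 0.0876). The change with the bin of Prep, at +550 kb, was 0.80 ± 0.23 (SE, FDR = 0.0906), from 31.3 in both pre-S libraries to 45.7 and 62.1 at imminent division. At -150 kb it was 0.37 ± 0.15 (SE, FDR = 0.355). None of the 3 passed, while that with Prep passed with TMM factors (FDR = 0.0354), with offsets fitted within distance classes (FDR = 0.0417) and without imminent division replicate 1 (FDR = 0.0288).

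The coding-start bin had its strongest relative contact with the same bin at +500 kb, which lies 550 kb from it. Over the distance mean this contact was 5.39 at 3 h, 6.22 at 10 h, 7.58 in pre-S cells and 7.08 at imminent division. Normalised counts were 82.2 and 95.2 at 3 h, 107 and 108 at 10 h, 139 and 138 in pre-S cells, and 133 and 147 at imminent division. The 33 h libraries of both kinds were above the 3 h and 10 h libraries, and the change from 10 h to imminent division was 0.39 ± 0.13 (SE, FDR = 0.0954), so it did not pass.

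Of the 80 partners of the coding-start bin 62 were tested, and a single pair passed between 10 h and imminent division, as a gain, beside the 0.645% of all tested pairs that were gained and the 1.95% of those within 200 kb. It joined the coding-start bin to chr10:44299800-44349620 within Atg5, 150 kb away. Normalised counts were 154 and 148 at 3 h, 163 and 154 at 10 h, 189 and 183 in pre-S cells, and 206 and 214 at imminent division. Groups at 33 h did not overlap with the earlier ones, and the log2 change was 0.41 ± 0.11 (SE, FDR = 0.0254). In the other 3 comparisons no partner of this bin passed, with 2, 8 and 5 partners below an unadjusted p of 0.05, again without a baseline over all tested pairs.

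Within the locus as a whole, gains between 10 h and imminent division were short and losses were long, a split that all tested pairs of the series showed too. Of 1957 pairs tested 18 were gained, at distances from 50 kb to 500 kb with a median of 175 kb, and 18 were lost, at distances from 100 kb to 1300 kb with a median of 1050 kb. Of all tested pairs in the series 2.03% were called, 0.645% as gained and 1.39% as lost. Over the series 1.95% of pairs within 200 kb were gained and 1.12% lost, and at 250 kb to 500 kb 1.07% were gained and 1.38% lost. At 550 kb to 1 Mb 0.348% were gained and 2.11% lost, and at over 1 Mb to 2 Mb 0.291% were gained and 1.43% lost.

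Among the gains, the bins at +250 kb and +500 kb, both partners of Prdm1, came into more frequent contact with each other. Their normalised counts were 93.4 and 93.7 at 10 h and 120 and 152 at imminent division (log2 change 0.55 ± 0.14 SE, FDR = 0.0127). The bin just upstream of the gene-start bin also gained contact with +250 kb, by 0.44 ± 0.13 (SE, FDR = 0.0379). The gene-start bin, +250 kb and +500 kb were thus pairwise among the gained pairs.

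The losses included pairs of Atg5 and Crybg1 with partners beyond the +500 kb bin. The pair of the Crybg1 bin with the bin of Bves, a muscle membrane protein gene, fell from 26.3 and 23.7 at 10 h to 5.62 and 8.15 at imminent division. Its log2 change was -1.82 ± 0.36 (SE, FDR = 0.00066), and its pre-S counts of 18 and 7.83 were below both 10 h values. The Atg5 bin fell in contact with the bin at +600 kb from 127 and 101 at 3 h and 82.8 and 98.0 at 10 h to 60.8 and 55.2 at imminent division, with a log2 change of -0.66 ± 0.17 (SE, FDR = 0.0124).

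The number of calls in the locus moved with the libraries used. It was 1 without 10 h replicate 2, 7 without 10 h replicate 1, and between 11 and 42 when any other library was left out. In the remaining comparisons 1 pair was called between 3 h and 10 h, 3 between 10 h and pre-S, and 7 between pre-S and imminent division, where 0.000617%, 0.597% and 0.372% of all tested pairs were called. Among the last, the bins at -250 kb and -200 kb, at the start and inside of Atg5, rose from 178 and 182 in pre-S cells to 255 and 280 (0.58 ± 0.11 SE, FDR = 0.00063). With 239 and 216 at 3 h and 223 and 215 at 10 h, the pre-S libraries were the lowest of the 8 for this pair. No pair of the locus was called in this comparison with DESeq2 or without pre-S replicate 1.

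**Figure D3:**
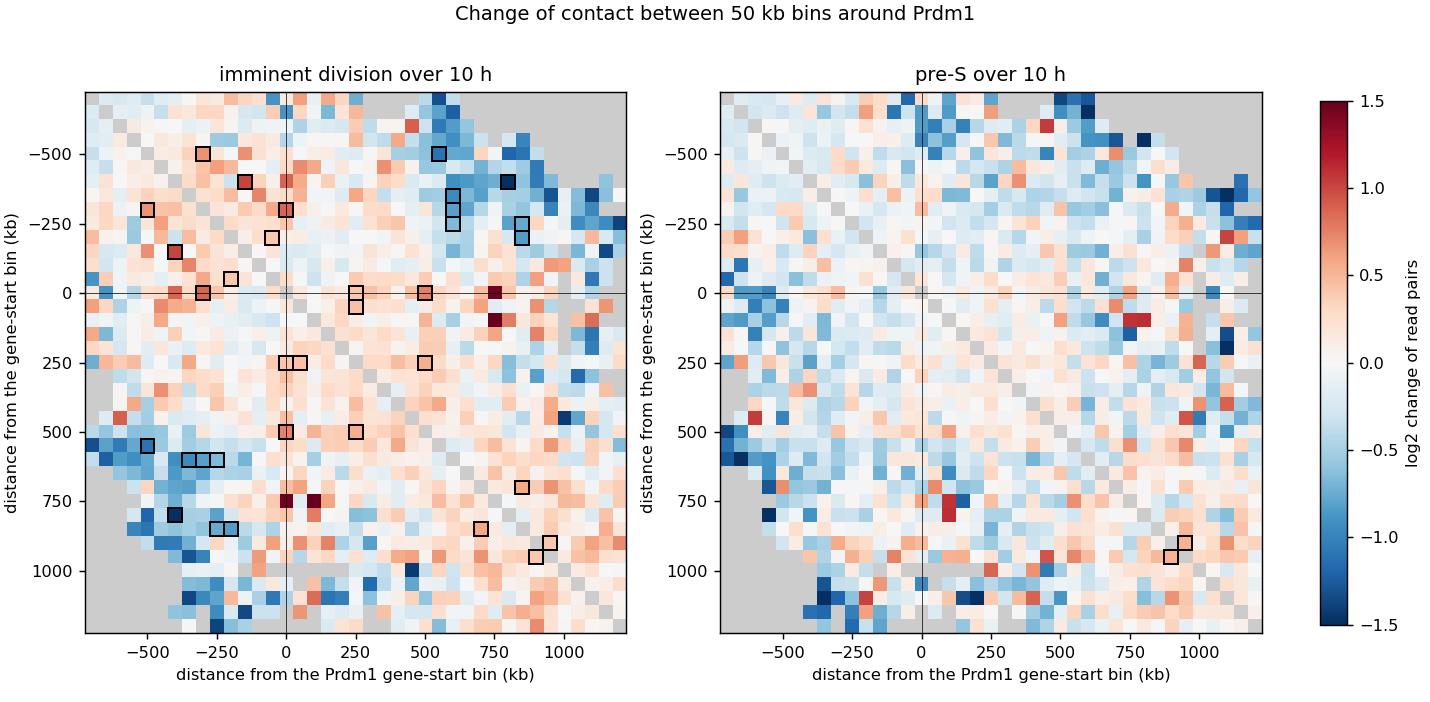
Log2 change of normalised read pairs (colour) between 50 kb bins from -700 kb to +1200 kb of the Prdm1 gene-start bin (both axes in kb) from 10 h to imminent division (left) and from 10 h to pre-S (right). Black squares mark pairs with FDR under 5%, grey marks pairs not tested, and colour saturates at 1.5. On the left, called gains span at most 500 kb and called losses join bins between -500 kb and -200 kb to bins past +500 kb.

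The summed contact of the Prdm1 promoter rose between 10 h and imminent division. Promoter interactivity is the sum of a promoter bin's same-chromosome pairs that stand above a curve of abundance on distance, and 12574 promoter bins were tested. For the gene-start bin the normalised sums were 1391 and 1664 at 3 h, 1662 and 1560 at 10 h, 1877 and 1859 in pre-S cells, and 2225 and 2189 at imminent division. The 3 h and 10 h libraries overlapped, the pre-S libraries were above both and the imminent division libraries above all.

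From 10 h to imminent division the log2 change of this sum was 0.46 ± 0.046 (SE, FDR = 1.54e-10), in a comparison that called 50% of all promoter bins. It exceeded the change of 99.3% of the promoter bins tested. From 10 h to pre-S the change was 0.22 ± 0.052 (SE, FDR = 0.00116), where 34.7% were called, and this call was lost without 10 h replicate 2 (FDR = 0.0583). From pre-S to imminent division it was 0.24 ± 0.048 (SE, FDR = 0.000424), where 18.5% were called, and from 3 h to 10 h it was 0.048 ± 0.051 (SE, FDR = 0.740), where 0.795% were called.

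The coding-start bin passed in the same comparisons from 10 h, as a rise, but not between the 33 h groups. Its normalised sums had means of 1844 at 3 h, 1950 at 10 h, 2321 in pre-S cells and 2468 at imminent division. The change from 10 h was 0.34 to imminent division (FDR = 3.93e-09) and 0.25 to pre-S (FDR = 2.67e-05). Between pre-S and imminent division it was 0.09 ± 0.042 (SE, FDR = 0.137), a smaller change than at the gene-start bin that did not pass. The difference between these bins was not tested.

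**Figure D4:**
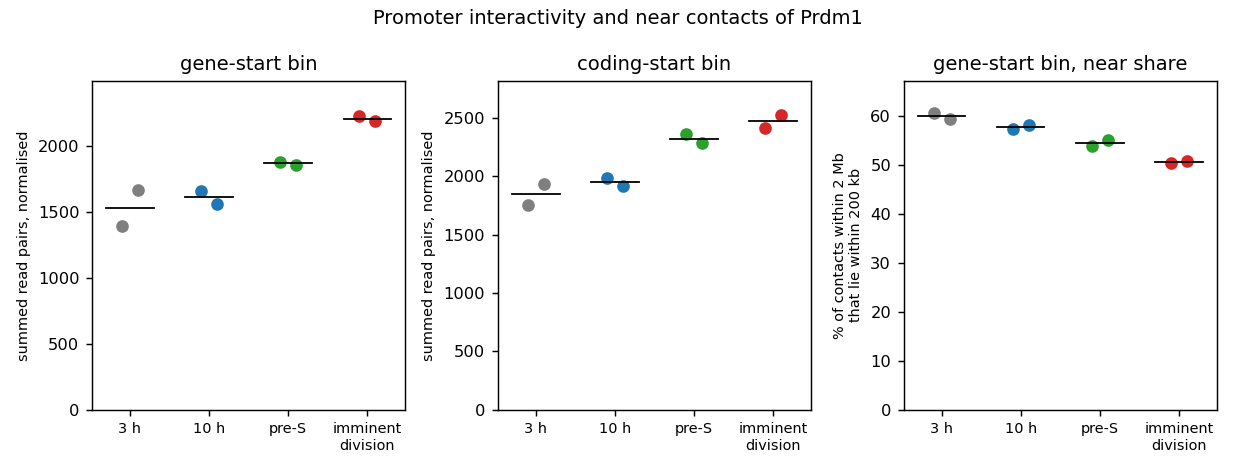
Normalised promoter interactivity (summed read pairs) of the Prdm1 gene-start bin (left) and coding-start bin (middle), and the percentage of the gene-start bin's contacts within 2 Mb that lie within 200 kb (right), by group with vertical axes from 0. Points are libraries and bars are means of 2 libraries. Interactivity of the gene-start bin is highest at imminent division, 2225 and 2189, where the near share is lowest, 50.4% and 50.8%.

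The share of near contacts of Prdm1 was highest at 3 h, lower at 10 h and lowest in the groups taken at 33 h. Of the gene-start bin's contacts within 2 Mb, the share within 200 kb was 60.6% and 59.4% at 3 h, 57.4% and 58.1% at 10 h, 54.0% and 55.2% in pre-S cells, and 50.4% and 50.8% at imminent division. No groups overlapped (exact permutation test over the 4 groups, p = 0.00952, the smallest that the 2520 assignments allow; 0.0381 after adjustment over 4 shares). The median over 13301 promoter bins was 52.0% and 52.8% at 3 h, 51.1% and 50% at 10 h, 50.4% and 49.5% in pre-S cells, and 49.7% and 50.1% at imminent division, so it too was highest at 3 h. The 8 tested partners within 200 kb had a median log2 change of 0.13 from 10 h to imminent division and of -0.04 from 10 h to pre-S. For the coding-start bin the share fell from means of 52.0% and 50.2% at 3 h and 10 h to 48.2% in pre-S cells and 46.9% at imminent division.

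Over the same groups a larger part of the same-chromosome contacts of Prdm1 stayed within 2 Mb. The share was 55.5% and 57.4% at 3 h, 62.0% and 59.97% at 10 h, 61.8% and 59.9% in pre-S cells, and 64.6% and 65.3% at imminent division (exact permutation test, adjusted p = 0.0381, up to 0.0762 with 1 library left out and 0.0571 with adjacent bins left out). The 10 h and pre-S values overlapped. The median over all promoter bins rose too, from 42.2% and 42.5% at 3 h to 51.5% and 51.1% at imminent division. The share of contacts with other chromosomes was between 27.3% and 32.1% (exact permutation test, adjusted p = 0.829).

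The share of contacts within 2 Mb that lay on the centromere side of the gene-start bin was 42.6% at 3 h, 41.6% at 10 h, 40.3% in pre-S cells and 39.6% at imminent division, as means of 2 libraries (exact permutation test, adjusted p = 0.0381, up to 0.140 with 1 library left out and 0.102 with adjacent bins left out). For the coding-start bin the same means were 38.2%, 39.3%, 36.3% and 39.4%. The order of the groups therefore differed between adjacent bins of the gene.

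Among the 21 other protein-coding genes that start within 2 Mb, some of which share a bin, promoter interactivity rose for 11 and fell for 1 from 10 h to imminent division. Counted as bins, 8 of 17 rose and 1 fell, against 24.9% higher and 25.1% lower over all promoter bins. The nearest on the centromere side, Atg5, rose by 0.15 to imminent division (FDR = 0.00121) and by 0.16 to pre-S (FDR = 0.00309), with FDR of 0.0987 and 0.119 without 10 h replicate 1, and of 0.171 for the second without pre-S replicate 1. The nearest on the other side, Prep, had a change of 0.06 to imminent division (FDR = 0.231). Of the fixed neighbours, Popdc3, Bves, Lin28b, Hace1, Cd24a, Qrsl1 and Rtn4ip1 passed in none of the 4 comparisons. Crybg1 rose by 0.27 from 3 h to 10 h (FDR = 0.00047) and by 0.21 from 10 h to pre-S (FDR = 0.000252), and fell by 0.12 from pre-S to imminent division (FDR = 0.0439). The first of these had an FDR of 0.0587 without 10 h replicate 2, the second passed whichever library was left out, and the third was lost without each of 6 libraries. Without the interaction filter they were 0.05 (FDR = 0.956), 0.03 (FDR = 0.497) and 0.02 (FDR = 0.633), so none passed and the third turned direction.

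The named genes around Prdm1 in its regulatory circuit were taken as lists and read in the same test from 10 h to imminent division. In this comparison 24.9% of all promoter bins were called higher and 25.1% lower. Each value is that of a 50 kb bin, so it is not specific to the named gene where other genes start there too. This holds for Bcl6, Rela and Spib, among others. Of 6 repressors of Prdm1, 3 fell and 1 rose. Irf8, an interferon regulatory factor, fell by 0.17 (FDR = 0.000655), and Mitf, a basic helix-loop-helix factor, by 0.22 (FDR = 0.000242). Pax5, the B cell identity factor, fell by 0.11 (FDR = 0.0145). Without the interaction filter Pax5 turned to 0.05 (FDR = 0.186) and Mitf was at -0.04 (FDR = 0.298). Bcl6, the germinal centre repressor, rose by 0.12 (FDR = 0.00486; 0.04 and FDR = 0.561 with bin coverage in the offsets), while Bach2 had a change of -0.08 (FDR = 0.0527). Of 7 activators, Nfkb1, a subunit of NF-κB, was the one that rose, by 0.11 (FDR = 0.0288), but it turned to -0.04 with bin coverage in the offsets (FDR = 0.563), and Irf4 had a change of -0.05 (FDR = 0.257).

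Of 10 genes that Blimp-1 represses, 4 fell and none rose from 10 h to imminent division, beside the 25.1% lower and 24.9% higher of all promoter bins. Spib, an Ets factor of B cells whose bin also holds the starts of Mybpc2 and Pold1, fell by 0.24 (FDR = 1.66e-06). Cd22, an inhibitory receptor, Ciita, the switch of MHC class II genes, and Ebf1, an early B cell factor, fell by between 0.12 and 0.14. With bin coverage in the offsets Cd22 turned to 0.07 (FDR = 0.267), and Spib, at -0.06, and Ciita, at -0.07, did not pass (FDR = 0.353 and 0.273). Ebf1 turned to 0.05 without the interaction filter (FDR = 0.207). Myc had a change of 0.00 (FDR = 0.984). Of 10 genes of the plasma cell programme, 7 rose and none fell, beside the same shares of all promoter bins. Cd28, a costimulatory receptor, rose by 0.39 (FDR = 3.98e-07). Sdc1, the plasma cell surface proteoglycan, rose by 0.27 (FDR = 3.55e-06), and Zbtb20, a zinc-finger factor, by 0.25 (FDR = 7.07e-06). Of the others that rose, Xbp1, a factor of the secretory programme, was at 0.10 (FDR = 0.0451) and turned to -0.02 without the interaction filter (FDR = 0.673). With bin coverage in the offsets Ell2, an elongation factor, was at 0.11 (FDR = 0.161) and Jchain, the joining chain of polymeric antibody, at 0.05 (FDR = 0.501).

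List medians from 10 h to imminent division were -0.09 for the repressors, 0.02 for the activators, -0.06 for the repressed genes and 0.14 for the plasma cell programme, beside 0.00 over all promoter bins. Of the 16 members called, Mitf, Irf8, Spib, Cd28, Sdc1 and Zbtb20 kept their call when any 1 library was left out, and the other 10 lost it without a 10 h or an imminent division library. Cd28, at 0.39, had the largest change of the 33 genes of the circuit, between those of the gene-start bin (0.46) and the coding-start bin (0.34) of Prdm1, and these differences were not tested. From 10 h to pre-S the counts of higher and lower members were 0 and 1, 1 and 1, 1 and 3, and 3 and 1 in the order of the lists, with 17.9% higher and 16.8% lower over all promoter bins. From pre-S to imminent division they were 0 and 0, 1 and 0, 0 and 1, and 1 and 0, with 8.27% higher and 10.2% lower. From 3 h to 10 h no member of the 4 lists passed in edgeR, where 0.795% of all promoter bins did. Unadjusted edgeR p was below 0.05 for 2 members, beside 1770 of all 12574 promoter bins. Ebf1, Cd28 and Rela were the members called between the 33 h groups.

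Promoter bins elsewhere in the genome tracked that of Prdm1 closely over the 8 libraries. By Pearson correlation of normalised log2 interactivity, the 5 most alike were those of Ptpn12 (0.995), 2310009B15Rik (0.992), Ifnk with Mob3b (0.991), Mcmdc2 (0.990), and Tex47 with Zfp804b (0.990). These coefficients are descriptive, rest on 8 points in 4 groups, and were the highest among all promoter bins. Within 2 Mb the most alike were Snx3 (0.935), Cd24a (0.909) and the bin of Sobp with 9030612E09Rik (0.909).

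Prdm1 lay in the active A compartment in all 8 libraries. The compartment score is the first component of the correlation of 100 kb contact profiles, with positive values for A. At Prdm1 it was 1.36 and 1.3 at 3 h, 1.3 and 1.31 at 10 h, 1.29 and 1.29 in pre-S cells, and 1.3 and 1.35 at imminent division, above 95.5% of autosomal bins. No comparison passed for this bin, with changes between -0.02 and 0.03 (SE 0.03, limma FDR from 0.507 to 0.832). Of the 41 bins of 100 kb in the locus 34 were A and 7 were B in all libraries, the B bins being the 7 farthest upstream, from 1400 kb on.

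The compartment score rose in the gene-poor stretch between Prdm1 and Prep. At +400 kb it was 0.64 and 0.73 at 3 h, 0.88 and 0.83 at 10 h, 0.99 and 0.95 in pre-S cells, and 1.08 and 1.13 at imminent division. No groups overlapped, and each of the 4 comparisons passed, with changes of 0.17, 0.25, 0.12 and 0.13 (SE 0.04, FDR = 0.0332, 0.00041, 0.0399 and 0.029). In these comparisons 3.48%, 23.1%, 24.6% and 17.7% of all bins were called, and 1.28%, 8.74%, 2.94% and 15% were called higher. The effect of leaving out a library was read for all of these changes except that from 10 h to pre-S. The change from 10 h to imminent division passed whichever library was left out, while that from 3 h to 10 h was lost without any 1 of 7 libraries (FDR from 0.0504 to 0.280) and that from pre-S to imminent division without any 1 of the 4 libraries taken at 33 h (FDR from 0.059 to 0.241).

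At +300 kb the rise was 0.22 ± 0.04 from 10 h to imminent division (SE, FDR = 0.00107) and 0.13 ± 0.04 from pre-S (SE, FDR = 0.0397), the second of which was lost without any 1 of 5 libraries (FDR from 0.0574 to 0.390). At +200 kb it was 0.12 ± 0.03 from 10 h (SE, FDR = 0.0237), with an FDR of 0.245 without 10 h replicate 1 and 0.231 without imminent division replicate 2. In the whole locus 7 bins rose and 6 fell from 10 h to imminent division, against 8.74% and 14.3% of all bins, and 5 rose and 3 fell from pre-S, against 15% and 2.73%. Rises from 10 h to imminent division were also called outside the gene-poor stretch, at -1500 kb, -1400 kb, -400 kb and +700 kb. The 6 that fell from 10 h lay from +1000 kb, at the start of Hace1, to +1500 kb, across the border with the B compartment.

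**Figure D5:**
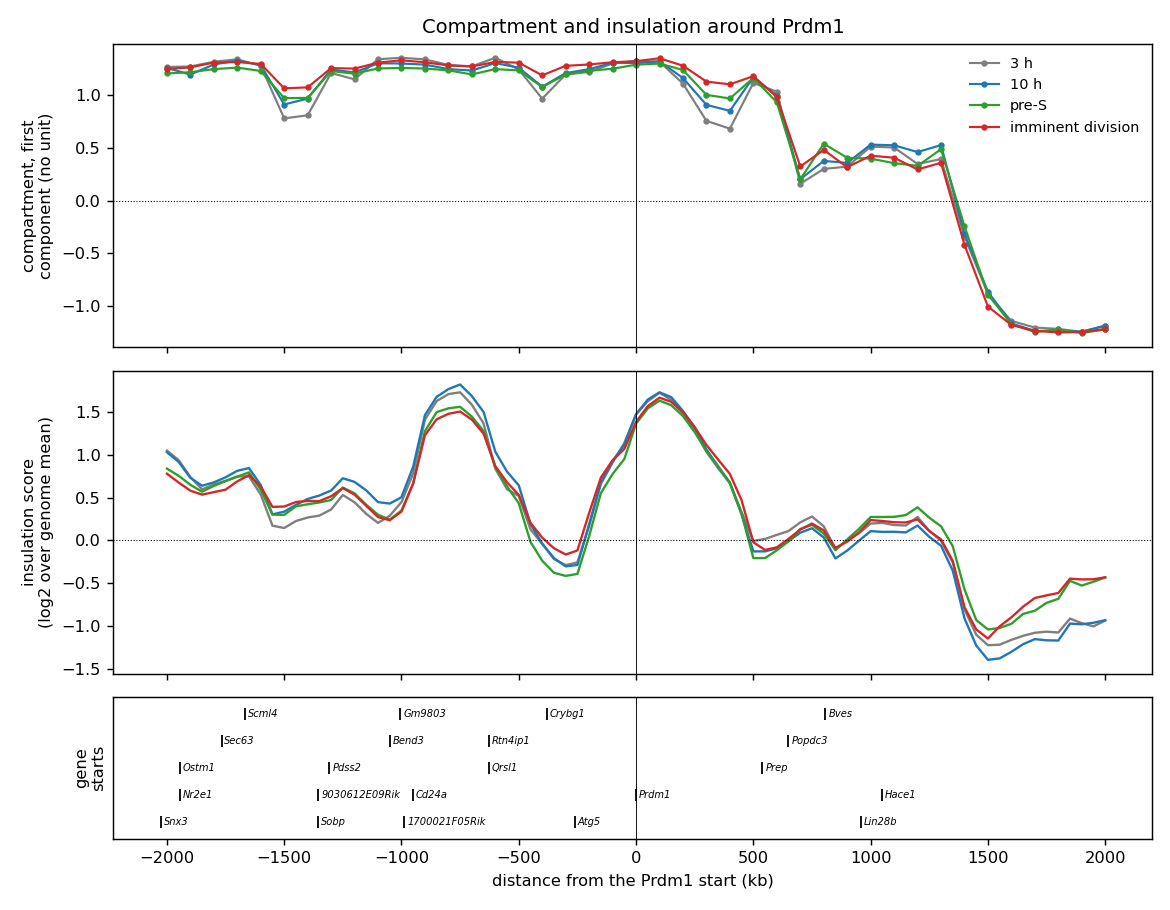
Compartment score (top, no unit), insulation score (middle, log2 over the genome mean) and starts of protein-coding genes (bottom) by distance in kb from the Prdm1 start, as means of 2 libraries per group. At +400 kb the compartment score rises from 0.68 at 3 h to 1.11 at imminent division. The insulation score has its local maximum at +100 kb and minima near -300 kb and +500 kb.

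Prdm1 lay inside a domain rather than at a border. The insulation score is the log2 mean count that crosses a bin within 500 kb on each side, over the genome mean, so that low values mark borders. At the gene-start bin it was 1.44 and 1.5 at 3 h, 1.47 and 1.48 at 10 h, 1.39 and 1.33 in pre-S cells, and 1.33 and 1.43 at imminent division. Its changes of -0.09 to imminent division and -0.11 to pre-S did not pass (SE 0.06, limma FDR = 0.193 and 0.125), in comparisons that called 64.5% and 57.8% of all bins. With windows of 250 kb the change to imminent division was -0.22 and passed (FDR = 0.0197), and with windows of 1 Mb that to pre-S was -0.16 and passed (FDR = 0.0208). A local maximum lay at +100 kb in 8 of 8 libraries.

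The nearest borders lay on either side of the stretch between Atg5 and Prep. On the centromere side the minimum lay at -300 kb in 7 libraries and at -250 kb in 1, and on the other side at +500 kb in 4 libraries and at +550 kb in 4. The bin at -250 kb, with the Atg5 start, had scores of -0.31 and -0.26 at 10 h, -0.37 and -0.41 in pre-S cells, and -0.12 and -0.12 at imminent division. It rose by 0.17 ± 0.05 from 10 h (SE, FDR = 0.0179) and by 0.27 ± 0.05 from pre-S (SE, FDR = 0.0146), where 9.05% of bins were called. Over all bins the median change was 0.12 from 10 h and 0.01 from pre-S. The rise from 10 h was lost without 10 h replicate 1, 10 h replicate 2 or imminent division replicate 1 (FDR from 0.0561 to 0.137), and that from pre-S without any 1 of the 4 libraries taken at 33 h (FDR from 0.0703 to 0.128).

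At the other border the bins of the minimum did not pass, while the bin at +450 kb rose by 0.16 ± 0.06 from 10 h to imminent division (SE, FDR = 0.0408), beside the same median of 0.12. The scores at +500 kb were -0.12 and -0.14 at 10 h and -0.05 and 0.00 at imminent division, a change of 0.11 ± 0.05 (SE, FDR = 0.0939). With windows of 1 Mb the changes at both borders from 10 h to imminent division had the opposite sign, -0.05 at -250 kb and -0.14 at +500 kb. Of the 81 bins of the locus 15 rose and 14 fell from 10 h to imminent division, where 43.9% and 20.5% of all bins did. From 10 h to pre-S 20 rose and 21 fell, where 37.4% and 20.4% did, and from pre-S to imminent division the 6 bins from -450 kb to -200 kb rose, where 7.55% did.

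A second measure of borders, the log2 ratio of contacts on the centromere side to those on the other side within 1 Mb, was -0.63 and -0.55 at 10 h and -0.64 and -0.71 at imminent division for the 100 kb region of Prdm1. It did not pass against a fold change of 1.1 in any comparison, and from 3 h to 10 h 0.376% of all regions did, 0.19% with a larger absolute ratio at 10 h. In the locus 8 of 41 regions passed from 10 h to imminent division, where 18.1% of all regions did, and 1 passed to pre-S, where 4.81% did. Between pre-S and imminent division 3 passed, where 5.53% did. The region at -200 kb, which starts inside Atg5 and ends past it, moved from -1.84 and -1.79 at 10 h to -1.54 and -1.59 at imminent division (FDR = 0.0331) and stood at -1.83 and -1.85 in pre-S cells (FDR = 0.0406 against imminent division). On the other side, the region at +600 kb moved from 0.24 and 0.23 at 10 h to -0.08 and -0.01 at imminent division (FDR = 0.00763). It was the 1 region that passed to pre-S, where it stood at -0.07 and -0.06 (FDR = 0.0226).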

How the data were processed

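In situ Hi-C libraries were made after digestion with MboI and sequenced as 81 bp pairs. Per the labels and methods, the authors aligned reads to mm10 with diffHic, marked duplicates and removed dangling ends. They deposited, for each library, raw counts of read pairs between 50 kb bins, without normalisation. The bins carry no coordinates in the deposited files and were rebuilt here from MboI fragment midpoints on GRCm38. Of 48088 autosomal bins 756 were left out, for over 10% undetermined sequence or for coverage more than 4-fold above or below the median.

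Bin-pair counts with a summed count of at least 10 and an average abundance above 4 times the interchromosomal background were fitted with edgeR 4.0.16 (quasi-likelihood, R 4.3.3) on all 8 libraries, with loess offsets fitted apart under 1.5 Mb. FDR is the Benjamini-Hochberg adjusted p over all features tested, with 5% as the threshold. A normalised count is the count divided by its offset, scaled to a common library. SE is the log2 change over the square root of the F statistic for edgeR results, and the standard error from the limma fit for compartment and insulation scores. Interactivity summed pairs above a curve of abundance on distance for bins with at least 200 counts (edgeR without trend), compartment scores (100 kb) and insulation scores (10 bins each side) were fitted with limma 3.58.1, and boundary ratios with glmTreat. Shares were compared by a two-sided exact permutation test. Compartment components were computed with scipy 1.17.1. Scripts were tested on simulated data.

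Partner bins were named when they passed, or, where fewer than 3 passed, also as the 3 of smallest p. Genes were named from fixed lists of neighbours and of the Prdm1 circuit. The locus and lists were chosen with earlier results of these data known. Alternatives were DESeq2 1.42.0, TMM factors, bin coverage in the offsets, loess by distance class, no filter, 100 kb bins, other windows and reaches, a replicate block, and leaving out each library. The coding-start bin was added after the data were seen. Excluded-region lists were not used here, and a further surface marker of the sort is not reported here.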

Additional observations from a re-analysis of the deposited data

Results flagged for a closer look

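The following changes differed between the pre-S and imminent division groups, both taken at 33 h, in a direct test of that difference, given as imminent division minus pre-S with an FDR under 5%. Interactivity of the Prdm1 gene-start bin differed by 0.24 on the log2 scale, that of Cd28 by 0.37, that of Rela by 0.13, that of Ebf1 by -0.13 and that of Crybg1 by -0.12. The bin of Rela also holds the starts of Rnaseh2c and Kat5. The Prdm1 difference did not pass at the coding start (0.089, edgeR FDR = 0.137) or over the gene body (0.049, FDR = 0.339), and without the interaction filter Ebf1 turned to 0.0060 and Crybg1 to 0.022. Rela lost its call without imminent division replicate 1 (FDR = 0.151) or pre-S replicate 1 (FDR = 0.228), and Ebf1 without imminent division replicate 2 (FDR = 0.0728) or pre-S replicate 1 (FDR = 0.167). The compartment score differed by 0.13 at +300 kb and by 0.13 at +400 kb, and neither passed with quantile normalisation (FDR = 0.126 and 0.125). The insulation score differed by 0.25 at -300 kb and by 0.27 at -250 kb, the bin of the Atg5 start. The first of these was lost without any 1 of the 6 libraries of the 10 h, pre-S and imminent division groups (FDR from 0.0583 to 0.187), with a replicate block (FDR = 0.0716) and with windows of 250 kb or 1 Mb (FDR = 0.0900 and 0.102). Mouse line and sorting gate differed between these groups too and cannot be told apart from stage.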

How the results depend on the processing

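Of 156 alternative values of the main results 114 were the same as the main one, as were 176 of 224 with a library left out. For named bins and genes 459 of 565 and 554 of 672 were. A tested change was the same if it kept direction and side of the threshold, and a count of calls if it stayed close to the main count. The causes of the changes given here were not tested. Deviations of same-numbered libraries from their group means correlated between -0.035 and 0.008 across groups. Counting noise in sparse bin pairs can hide a shared deviation, so whether same-numbered libraries were prepared as pairs is not known.

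Partners of the gene-start bin called from 10 h to imminent division (3) numbered 1 with DESeq2, 5 with bin coverage and 1 for the coding-start bin, from 10 h to pre-S (0) 1 with TMM factors and 1 with 100 kb bins, and from pre-S to imminent division (0) 1 with TMM factors and 1 with distance classes. Omitting 1 library gave 0 to 3, 0 to 1 and 0 to 1.

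Calls in the locus from 3 h to 10 h (1) numbered 0 with DESeq2, 2 with bin coverage and 0 with a replicate block. From 10 h to imminent division (36) they numbered 14, 70, 59 and 58 with DESeq2, TMM factors, bin coverage and 100 kb bins, and from 10 h to pre-S (3) 1, 6 and 6 with the first 3 of these and 0 with distance classes. From pre-S to imminent division (7) they numbered 0 with DESeq2, 41 with bin coverage, 2 with distance classes, 14 with 100 kb bins and 4 with a replicate block. Omitting 1 library gave 0 to 1, 1 to 42, 0 to 5 and 0 to 7.

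Interactivity of Prdm1 changed by -0.011 from 3 h to 10 h without the interaction filter, and from pre-S to imminent division by 0.049 over the gene body and 0.089 at the coding start, neither passing. Omitting 1 library gave -0.051 to 0.21, 0.41 to 0.50, 0.17 to 0.26 and 0.23 to 0.26.

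The compartment change at Prdm1 was 0.0054 (quantile) and 0.0027 (250 kb) from 3 h to 10 h, -0.032 (250 kb) to imminent division and 0.013 (quantile) to pre-S, with -0.050 to 0.0083, -0.0026 to 0.038 and, from pre-S, 0.013 to 0.054 on omitting 1 library. The insulation change was -0.020 (250 kb), -0.026 (1 Mb) and -0.0012 (distance mean) from 3 h to 10 h, -0.22 (250 kb, passing) to imminent division, -0.16 (1 Mb, passing) to pre-S and -0.065 (250 kb) from pre-S, with -0.024 to 0.027, -0.14 to -0.039, -0.14 to -0.080 and -0.029 to 0.070 on omission. The boundary ratio from pre-S gave -0.039 to 0.033.

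From 10 h to imminent division, the share within 2 Mb changed by 4.89 points with adjacent bins left out (adjusted p = 0.0571), the centromere-side share by -2.81 with these left out (adjusted p = 0.102), -0.30 over the gene body (adjusted p = 0.0508) and 0.12 at the coding start, and the interchromosomal share by 0.66 and 0.47 for the last 2. Omission gave 2.99 to 5.01, -2.38 to -1.72, -7.54 to -6.78 for the share within 200 kb, and -1.05 to 0.50.

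Direction turned without the interaction filter for Pax5 (0.053), Ebf1 (0.047, and 0.0060 from pre-S), Xbp1 (-0.022) and Crybg1 (0.022 from pre-S), and with bin coverage for Nfkb1 (-0.039), Cd22 (0.069), and to pre-S Bcl11a (-0.054) and Tnfrsf17 (0.056). Insulation turned with 1 Mb windows to -0.069, -0.047, -0.14 and -0.14 at -300, -250, +500 and +550 kb and to -0.026 at +550 kb from pre-S, and at -250 kb to 0.0038 from 10 h to pre-S with 250 kb windows. At +550 kb omission gave -0.030 to 0.063.

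Depth limits the distant partners: 20 of 80 partners of the gene-start bin were too sparse to be tested, and counts behind that bin within 2 Mb ranged from 1487 to 5073.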
